A study of Mus musculus with 20 samples.

Results

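Plasmacytoid dendritic cells (pDCs) were followed through 9 genes in the bone marrow and kidney of mice given oxaliplatin. The genes were chosen by symbol as genes that these cells are known to express: Siglech, Ccr9, Tcf4, Spib, Cox6a2, Pacsin1, Tlr7, Tlr9 and Cd4. They are 9 of the 55486 genes listed in each tissue. The 9 genes and all lists below were chosen with earlier results of these data known. Counts and p-values over them are therefore descriptive. All 9 had enough reads to be tested in bone marrow and 7 of 9 in kidney, where Siglech and Spib did not.

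The animals were C57BL/6 mice, 10 weeks old at the start and with no transgene named. The oxaliplatin group received oxaliplatin, a platinum drug that binds DNA, at 10 mg/kg by intraperitoneal injection over 8 weeks, and the vehicle group received the solvent alone, 5% dextrose. The marrow was spun out of tibia and femur, 6 days having passed since the final injection. There were 5 libraries per treatment in each tissue, 20 in all, with totals of 30660153 to 41140527 counts in marrow and 24393007 to 30925430 in kidney. The methods name both sexes, but Y-linked genes summed to 77.5 CPM (counts scaled to the size of each library with TMM factors) or more in every library while Xist stayed at 2.88 CPM or less.

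pDCs are made in bone marrow from precursors that also give rise to other dendritic cells and, in part, share a path with B cells. They are rare, look like plasma cells, and are known for sensing viral nucleic acids in endosomes and answering with large amounts of type I interferon. The transcription factor TCF4 (also called E2-2) sets and maintains their identity, and SPIB, an ETS family factor, acts with it. Several of the 9 genes are shared with other cells: Spib, Tlr9 and Tcf4 are also known from B cells, Cd4 from T cells, Tlr7 from macrophages, and Cox6a2 from skeletal and heart muscle. Because whole marrow was sequenced, fewer cells of a type and less RNA per cell cannot be told apart in any of these values.

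The stretches before the start sites of the called members except Cd4 are shown first. TCF4 is known to bind the E-box, CANNTG, and SPIB the purine-rich ETS core GAGGAA. The RefSeq promoter table (GRCm38.p6) held 5 of the 9 members, and not Tcf4, Cox6a2, Tlr7 or Cd4. Its starts for Ccr9 and Pacsin1 lie within the gene spans given further down, not at their 5′ ends. Each line gives the 170 bases before the annotated start, read 5′ to 3′ on the gene's own strand, with matches to CANNTG or to GAGGAA on either strand in capitals. They lie at chr7:55768014-55768183, plus strand (Siglech), chr9:123767041-123767210, plus strand (Ccr9), chr7:44532072-44532241, minus strand (Spib), chr17:27685069-27685238, plus strand (Pacsin1), and chr9:106222428-106222597, plus strand (Tlr9).
Siglech: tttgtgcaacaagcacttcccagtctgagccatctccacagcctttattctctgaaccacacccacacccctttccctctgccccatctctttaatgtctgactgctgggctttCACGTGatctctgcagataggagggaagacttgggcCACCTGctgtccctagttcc
Ccr9: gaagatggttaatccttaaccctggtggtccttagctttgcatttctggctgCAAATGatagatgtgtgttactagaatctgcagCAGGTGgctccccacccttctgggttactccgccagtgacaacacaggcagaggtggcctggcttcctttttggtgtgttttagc
Spib: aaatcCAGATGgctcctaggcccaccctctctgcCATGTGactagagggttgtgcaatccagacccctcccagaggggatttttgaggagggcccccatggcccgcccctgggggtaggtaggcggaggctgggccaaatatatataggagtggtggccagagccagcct
Pacsin1: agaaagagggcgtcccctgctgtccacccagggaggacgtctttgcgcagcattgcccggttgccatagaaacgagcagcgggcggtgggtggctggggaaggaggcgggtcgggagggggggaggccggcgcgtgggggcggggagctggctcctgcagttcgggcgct
Tlr9: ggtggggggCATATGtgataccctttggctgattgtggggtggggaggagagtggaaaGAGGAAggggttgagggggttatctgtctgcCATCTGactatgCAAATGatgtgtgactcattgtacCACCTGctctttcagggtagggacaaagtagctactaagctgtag

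Over the 250 bases before the start, which reach beyond the stretches printed, Siglech held 3 E-boxes, Ccr9 2, Spib 2, Tlr9 4 and Pacsin1 0. The E-box variant CAGGTG, searched on both strands, stood once each in Siglech (first base at -20 from the start), Ccr9 (-85) and Tlr9 (-45). GAGGAA on either strand was found only in Tlr9 (-112) among these 5. Of all 32851 promoters in the table, 66.2% held an E-box in the same window, 17.2% held CAGGTG, which is itself an E-box, and 23.3% held GAGGAA. A match here is a string of letters and not a measured binding site.

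In bone marrow 6 of the 9 genes were lower after oxaliplatin, 0 were higher and 3 were not called. A gene was called when its Benjamini-Hochberg adjusted p in edgeR's quasi-likelihood test was under 0.05 over all genes tested and its fold change exceeded 1.5. By that rule 11.8% of the 22363 marrow genes tested were lower and 11.6% higher, 23.3% together, and 33.1% passed the adjusted p alone. The median log2 fold change of the 9 genes was -1.47, against -0.04 over all genes tested. The genes that fell were Spib, Siglech, Ccr9, Pacsin1, Cd4 and Tlr9, in that order of size, and those not called were Cox6a2, Tcf4 and Tlr7. In the 6 genes that fell the 5 oxaliplatin mice all lay below the 5 vehicle mice, a separation in that direction that 13.5% of all tested genes showed.

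**Figure D1:**
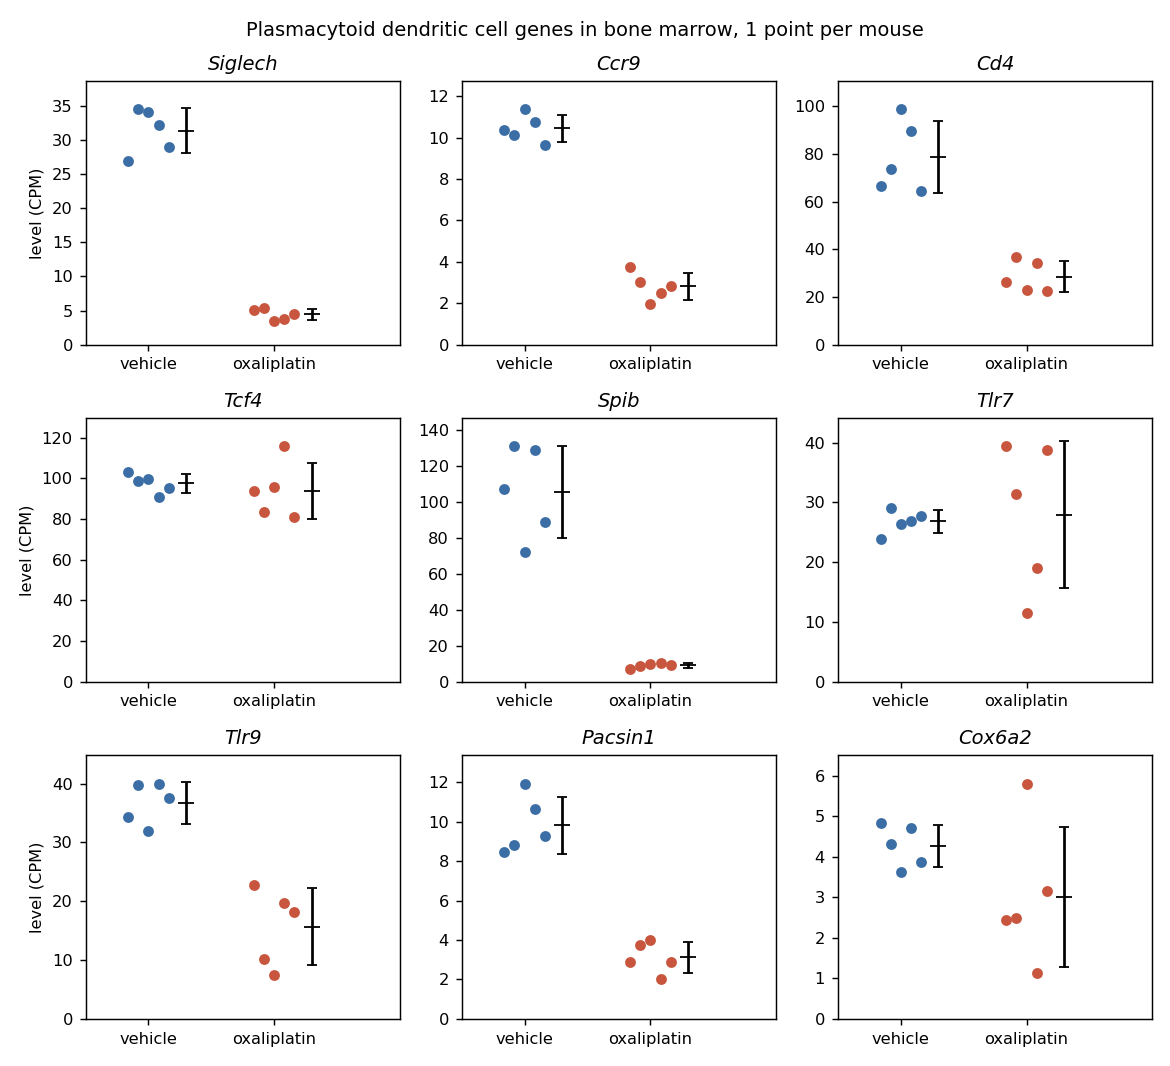
Level of each gene in bone marrow (CPM, linear axis from 0), with 1 point per mouse and the mean ± SD of 5 mice beside each group. The groups separate without overlap for Siglech, Ccr9, Cd4, Spib, Tlr9 and Pacsin1, and overlap for Tcf4, Tlr7 and Cox6a2.

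Among the surface proteins, Siglech fell most. It encodes Siglec-H, a sialic acid-binding receptor that is the most used surface mark of mouse pDCs and signals through the adaptor DAP12. The gene lies at chr7:55768178-55778925 on the plus strand (GRCm38, GENCODE vM21). The vehicle mice had 26.9, 34.5, 34.2, 32.2 and 28.9 CPM, and the oxaliplatin mice 5.13, 5.36, 3.47, 3.78 and 4.47 CPM. No oxaliplatin mouse came near the lowest vehicle mouse, and both groups were tight. Siglech changed by -2.82 on the log2 scale (SE 0.14, edgeR adjusted p = 5.58e-08), a level 7.07-fold lower.

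Ccr9 encodes the receptor for the chemokine CCL25, which guides pDCs to the small intestine and thymus. It lies at chr9:123678439-123784330 on the plus strand, and its exons share 2223 bases with other annotated genes. It stood at 10.4, 10.2, 11.4, 10.7 and 9.65 CPM in the vehicle mice and at 3.74, 3.04, 1.98, 2.49 and 2.86 CPM in the oxaliplatin mice. The vehicle mice differed little from each other, and all oxaliplatin mice lay well below them. The change was -1.89 on the log2 scale (SE 0.17, edgeR adjusted p = 4.35e-06), or 3.71-fold lower. Ccl25, its ligand, fell by 0.49 on the log2 scale, from 15.6 ± 1.05 to 11.1 ± 1.72 CPM (SD, n = 5 each), with an edgeR adjusted p of 0.00782 but a fold change within 1.5.

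Cd4 encodes the co-receptor of helper T cells, which mouse pDCs also carry. It lies at chr6:124864692-124888221 on the minus strand. The vehicle mice had 66.7, 73.7, 98.7, 89.8 and 64.3 CPM, and the oxaliplatin mice 26.2, 36.6, 23.1, 34.1 and 22.5 CPM. The groups did not overlap, although the vehicle mice spread more widely than for Siglech. On the log2 scale Cd4 changed by -1.47 (SE 0.17, edgeR adjusted p = 2.21e-05), 2.76-fold lower.

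Of 10 T cell genes, only Cd2 fell (-1.42 log2, edgeR adjusted p = 4.95e-04), none rose (2 did under other scalings), and the list had a median of 0.30 on the log2 scale. With the mean skeletal muscle level of each library as a covariate, an alternative added after the data were seen, Cd2 was at -0.97 and no longer called (edgeR adjusted p = 0.0645). Muscle level itself ran higher after oxaliplatin (values below). Values with this covariate, here and further down, are therefore not free of the treatment difference. Cd3e stood at 5.07 ± 0.730 and 6.61 ± 1.70 CPM and Trac at 3.80 ± 0.689 and 4.89 ± 0.836 CPM (vehicle, then oxaliplatin, SD, n = 5 each). The summed T cell genes ranged from 44.2 to 57.8 CPM in vehicle and from 34.7 to 58.1 CPM in oxaliplatin mice. Within each mouse, the mean log2 level of the T cell genes was subtracted from log2 Cd4. The result went from 4.10 ± 0.320 to 2.56 ± 0.373 (SD, n = 5 each), a difference of -1.54. Its exact permutation p was 0.00794, the smallest that 5 against 5 mice allow (adjusted p = 0.0108 over 15 such contrasts). The parts of T cells, pDCs and other cells in the Cd4 and Cd2 levels were not tested.

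Of the transcription factors, Spib fell and Tcf4 was not called. Spib, the ETS factor of pDCs and B cells, lies at chr7:44525993-44532071 on the minus strand. It stood at 107, 131, 72.2, 129 and 89.0 CPM in the vehicle mice and at 7.17, 8.93, 9.93, 10.3 and 9.46 CPM in the oxaliplatin mice. The vehicle mice were uneven, and the oxaliplatin mice were all low and close together. The log2 fold change of -3.53 (SE 0.18, edgeR adjusted p = 4.88e-08) was the largest of the 9 genes, 11.5-fold lower.

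Tcf4, the E protein gene of pDC identity, lies at chr18:69343356-69689079 on the plus strand. Its levels were 103, 98.8, 99.5, 90.6 and 95.2 CPM in the vehicle mice and 93.8, 83.2, 95.9, 116 and 81.1 CPM in the oxaliplatin mice. The groups overlapped, and the oxaliplatin group held both the highest and the lowest mouse. The log2 fold change was -0.05 (95% interval -0.28 to 0.18, edgeR adjusted p = 0.733), an interval that spans 0 and leaves out a fall the size of that of Siglech or Spib. Scaled by library size alone it was 0.10, against a median of 0.11 over all genes. Endothelial cells also express Tcf4, and 3 of 7 endothelial genes rose. Their summed level ranged from 261 to 321 CPM in vehicle mice and from 325 to 606 CPM in oxaliplatin mice. Log2 Tcf4 minus the mean endothelial level of the same mouse differed by -0.63 between the groups (exact permutation p = 0.00794, adjusted p = 0.0108, n = 5 each). The part of other cells in the Tcf4 level was not tested.

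Of the endosomal receptors, Tlr9 fell and Tlr7 was not called. Tlr9 encodes the receptor for unmethylated CpG DNA and lies at chr9:106222598-106226883 on the plus strand. The vehicle mice had 34.3, 39.8, 32.0, 40.0 and 37.5 CPM, and the oxaliplatin mice 22.8, 10.2, 7.43, 19.8 and 18.2 CPM. All oxaliplatin mice were below all vehicle mice, but they spread widely, with replicates 2 and 3 lowest. Tlr9 changed by -1.23 on the log2 scale (SE 0.26, edgeR adjusted p = 0.00276), 2.34-fold lower. With the same muscle covariate it was -0.87 and no longer called (edgeR adjusted p = 0.12).

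Tlr7, the receptor for single-stranded RNA, was not called. It lies at chrX:167304929-167330558 on the minus strand. The vehicle mice had 24.0, 29.1, 26.3, 26.9 and 27.8 CPM, and the oxaliplatin mice 39.4, 31.4, 11.5, 19.0 and 38.7 CPM. The oxaliplatin mice lay on both sides of the vehicle group, 3 above all vehicle mice and 2 below. The log2 fold change was 0.06 (95% interval -0.58 to 0.70, edgeR adjusted p = 0.896), which leaves room for a rise of 1.5-fold.

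Macrophages, which also use Tlr7, had higher marker levels: 5 of 10 macrophage genes rose, among them C1qa (1.37 log2, edgeR adjusted p = 5.79e-05), and none fell. Their summed level was 1356 to 1821 CPM in vehicle mice and 1545 to 3386 CPM in oxaliplatin mice. Log2 Tlr7 minus the mean macrophage level changed by -0.70, with overlapping groups (exact permutation p = 0.0159, adjusted p = 0.0183, n = 5 each). The part of macrophages in the Tlr7 level was not tested.

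Pacsin1 and Cox6a2 are known from transcript surveys of pDCs. Pacsin1 encodes an adaptor of membrane trafficking, best known in neurons, that pDCs use in their interferon response to CpG DNA. It lies at chr17:27655509-27711482 on the plus strand. The vehicle mice had 8.45, 8.82, 11.9, 10.6 and 9.26 CPM, and the oxaliplatin mice 2.88, 3.76, 4.01, 2.05 and 2.88 CPM. The groups were far apart compared with their spread. The change was -1.66 on the log2 scale (SE 0.20, edgeR adjusted p = 3.18e-05), 3.15-fold lower.

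Cox6a2 encodes the muscle form of a cytochrome c oxidase subunit, and mouse pDCs are among the few blood cells known to express it. It lies at chr7:128205435-128206387 on the minus strand, and 70 of its exon bases overlap Itgad on the other strand, which matters because the use of strand in the counting is not given in the sources used here. The vehicle mice had 4.84, 4.31, 3.62, 4.70 and 3.87 CPM, and the oxaliplatin mice 2.45, 2.48, 5.80, 1.14 and 3.15 CPM. Of the oxaliplatin mice 4 lay below every vehicle mouse, and replicate 3 lay above all of them. The log2 fold change of -0.51 was not called (95% interval -1.27 to 0.26, edgeR adjusted p = 0.274).

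Skeletal muscle RNA varied between the marrow libraries. The 11 muscle genes summed to 36.7, 14.1, 131, 16.8 and 116 CPM in the vehicle mice and to 467, 398, 964, 58.3 and 461 CPM in the oxaliplatin mice, and 8 of the 11 rose. The oxaliplatin mouse with most muscle RNA, replicate 3, was also the highest in Cox6a2, and the one with least, replicate 4, was the lowest. In the vehicle group the 2 mice with most muscle RNA, replicates 3 and 5, had the least Cox6a2. The part of muscle in the Cox6a2 level was not tested. Without oxaliplatin replicate 3 the log2 fold change of Cox6a2 was -0.89 and called (edgeR adjusted p = 0.0157), and with the muscle level as a covariate it was -1.25 and not called (edgeR adjusted p = 0.16).

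**Figure D2:**
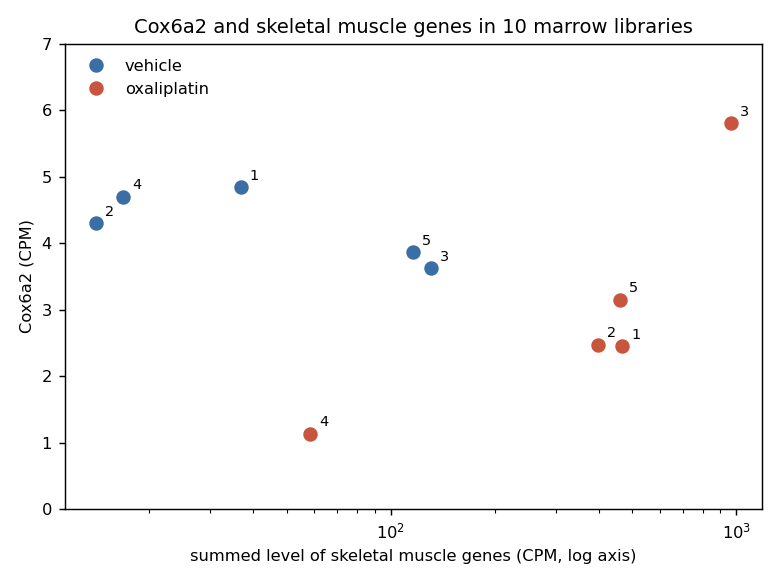
Cox6a2 (CPM) against the summed level of 11 skeletal muscle genes (CPM, log axis) in the 10 marrow libraries, with replicate numbers. Oxaliplatin replicate 3 is highest on both axes of its group at 964 and 5.80 CPM, and oxaliplatin replicate 4 is lowest on both at 58.3 and 1.14 CPM.

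Levels of different genes were compared per length of exon, in CPM per kb. In vehicle marrow Spib stood highest at 36.9 ± 8.91 CPM per kb, then Cd4 at 19.5 ± 3.72 (SD, n = 5 each). Tlr9 at 10.6 ± 1.01 and Siglech at 9.27 ± 0.981 CPM per kb lay within their spread of each other. So did Tlr7 at 6.57 ± 0.469 and Cox6a2 at 6.28 ± 0.770 CPM per kb, which were followed by Tcf4 at 3.56 ± 0.172, Pacsin1 at 1.51 ± 0.222 and Ccr9 at 1.02 ± 0.0630.

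The order was another after oxaliplatin. Cd4 at 7.06 ± 1.60 and Tlr7 at 6.85 ± 3.03 CPM per kb were now at the top and within their spread of each other, and Spib at 3.19 ± 0.423 lay close to Tcf4 at 3.43 ± 0.501. Siglech was down to 1.31 ± 0.242 CPM per kb. The lengths are those of all exons merged, so a gene with many annotated exons, such as Tcf4 with 27382 exon bases, has a level per kb that is too low.

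**Figure D3:**
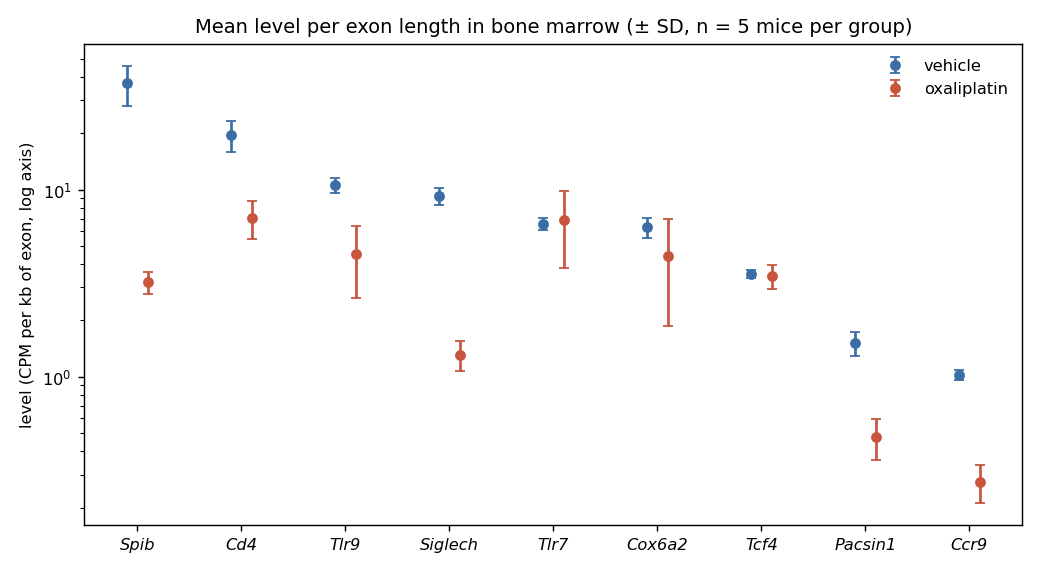
Mean level of each gene in bone marrow in CPM per kb of merged exon (log axis), with the SD of 5 mice per group. Spib drops from the top of the order (36.9) to the level of Tcf4 (3.19 against 3.43), while the error bars of the groups overlap for Tlr7 (6.57 and 6.85) and Tcf4 (3.56 and 3.43).

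The change of each gene was also set against that of Siglech within mice. The difference in log2 level between each of the other 8 genes and Siglech was compared between groups with an exact permutation test. Relative to Siglech, Ccr9 was higher after oxaliplatin by 0.92, Pacsin1 by 1.15, Cd4 by 1.34, Tlr9 by 1.48, Cox6a2 by 2.14, Tlr7 by 2.74 and Tcf4 by 2.75 log2 units (exact permutation p = 0.00794 and adjusted p = 0.0108 for each). Spib alone was lower relative to Siglech, by -0.68 with overlapping groups (exact permutation p = 0.0317, adjusted p = 0.034). Siglech fell 7.07-fold, so a gene that changed little had to differ from it, and these contrasts largely restate the fold changes above. Several of the genes are shared with other marrow cells, so the contrasts cannot show whether they moved by a common factor in pDCs.

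B cell genes fell as well. All 10 B cell genes were called lower (8 with the muscle covariate), with a median of -2.63 on the log2 scale, from Fcrla at -3.32 to Ebf1 at -1.01. They summed to 391 to 673 CPM in vehicle mice and 121 to 168 CPM in oxaliplatin mice. Siglech, which B cells lack, changed by -0.39 log2 units relative to the mean of these genes, which did not pass (exact permutation p = 0.198, adjusted p = 0.198). Relative to their median it changed by -0.62, which did (exact permutation, adjusted p = 0.00992).

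Spib fell further than the B cell genes, by -1.07 relative to their mean with no overlap between groups (exact permutation p = 0.00794, adjusted p = 0.0108). Tlr9 fell less, with a relative change of 1.09 and overlapping groups (exact permutation p = 0.0159, adjusted p = 0.0183). How much of Spib, Tlr9 or Tcf4 RNA came from B cells was not tested.

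Of 14 other genes known from mouse pDCs, 9 were called lower, 0 higher and 5 not called, with a median log2 fold change of -1.31. The largest falls were Klk1 (-3.25, edgeR adjusted p = 1.63e-04), a tissue kallikrein, Havcr1 (-3.14, edgeR adjusted p = 6.24e-06), a phosphatidylserine receptor, and Klk1b27 (-2.72), another kallikrein, though these 3 were low, at 0.672 to 3.68 CPM in vehicle mice. Klk1 and Klk1b27 belong to a family of near-identical genes, and a count of unambiguous reads leaves out the reads they share. Cd300c followed at -2.49 and was low too, at 0.280 to 1.19 CPM in the oxaliplatin mice.

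Of the better expressed genes of that list, Ly6d, a surface mark of lymphoid progenitors, B cells and pDCs, fell from 31.8 ± 5.09 to 6.14 ± 0.555 CPM (-2.37 log2, edgeR adjusted p = 9.19e-08). Upb1 fell by 2.03, Rpgrip1 by 1.40, Lag3 by 1.21 and Klra17 by 0.96 on the log2 scale. Bst2, which encodes the antigen of the pDC antibody PDCA-1 but is expressed by many cells under interferon, was at 24.4 ± 2.53 and 26.8 ± 6.54 CPM (0.13 log2, edgeR adjusted p = 0.579). Ptprs, a receptor phosphatase of pDCs that fibroblasts and neurons express too, was at -0.13 (edgeR adjusted p = 0.58), and Smim5, Lair1 and Mctp2 lay between -0.74 and -0.35 without being called. With the Y-linked level of each library as a covariate these 3 were called too (Smim5 -0.60, Lair1 -0.61 and Mctp2 -1.30 log2), which made 12 of 14 lower. The Y-linked sum itself ran lower after oxaliplatin (99.1 to 165 CPM, against 156 to 173 CPM in vehicle marrow). Values with this covariate are therefore not free of the treatment difference. With the muscle covariate 7 of 14 were lower, and Klk1b27 and Klra17 were no longer called (edgeR adjusted p = 0.13 and 0.0886).

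**Figure D4:**
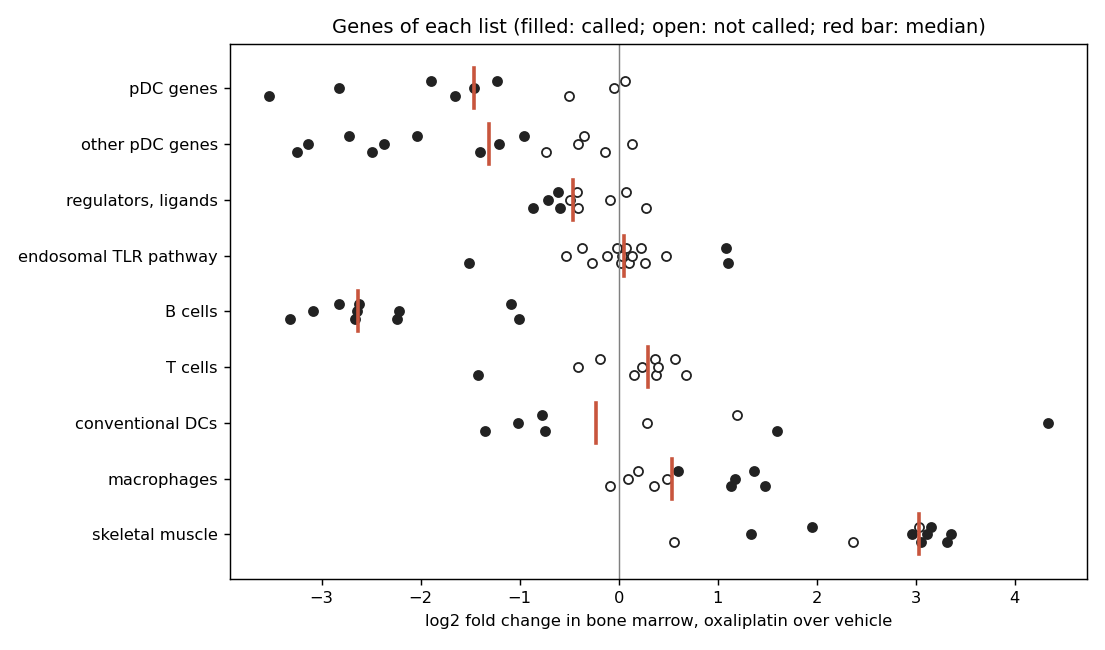
Log2 fold change in bone marrow (oxaliplatin over vehicle) of each gene of 9 lists, 1 point per gene, filled where called, with the list median as a bar. The medians of the pDC genes (-1.47), other pDC genes (-1.31) and B cell genes (-2.63) lie left of 0. So do those of the regulators and ligands (-0.46) and of the conventional dendritic cell genes (-0.23). The medians of the endosomal pathway (0.05), T cell (0.30), macrophage (0.54) and skeletal muscle genes (3.03) do not. Single genes of several lists lie on the other side of 0 from their median.

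Of 10 regulators and ligands of pDC development, 4 fell and 0 rose. Irf8, the factor required by pDCs and conventional dendritic cells, went from 214 ± 6.60 to 117 ± 7.32 CPM (-0.86 log2, edgeR adjusted p = 3.28e-06). Bcl11a, which acts above Tcf4, fell by 0.71, Runx2, needed for pDCs to leave the marrow, by 0.61, and Ikzf1 by 0.60 on the log2 scale, although Ikzf1 was not called with the muscle covariate (edgeR adjusted p = 0.0506). Runx2 and Ikzf1 lay close to the fold limit. By DESeq2 and with median ratio factors they were within it, Runx2 at -0.57 and Ikzf1 at -0.56 in both. By library size alone Runx2 (-0.47), Ikzf1 (-0.45) and Bcl11a (-0.56) were all within it. Flt3, the receptor on dendritic cell progenitors, had a log2 fold change of -0.42 (edgeR adjusted p = 0.257), which with the Y-linked covariate was -1.05 and called (edgeR adjusted p = 0.00207), and its ligand gene Flt3l one of -0.41 (edgeR adjusted p = 0.052). Id2, which opposes TCF4 in conventional dendritic cells, was at 0.27 and Zeb2, which represses Id2 in pDCs, at 0.07, neither called.

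Of 16 genes of the endosomal receptor pathway around TLR7 and TLR9, 1 fell and 2 rose, with a median of 0.05 on the log2 scale. Over all marrow genes tested 11.8% were lower and 11.6% higher, so as a list these genes did not stand out. The gene that fell was Irf7, the factor that drives interferon genes in pDCs, from 55.7 ± 4.88 to 19.5 ± 2.78 CPM (-1.51 log2, edgeR adjusted p = 7.87e-07), with no overlap. Those that rose were Lgmn (1.09), an endosomal protease that cleaves the receptors, and Tlr3 (1.11), the receptor for double-stranded RNA.

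The remaining 13 were not called. Slc15a4, an endosomal transporter that pDC interferon production depends on, fell within the fold limit (-0.53, edgeR adjusted p = 5.73e-04), as did Unc93b1, the chaperone of these receptors (-0.37, edgeR adjusted p = 0.0354), while Myd88, their adaptor, rose within it (0.48, edgeR adjusted p = 8.91e-04). Tlr8 and Tlr13 were at 0.26 and 0.14.

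Type I interferon itself was near zero. None of 15 interferon genes passed the filter, 5 had a read in any marrow library, and the highest count of any of them in a marrow library was 4. Summed over the 15, a marrow library held 0 to 7 counts, and a count of 0 allows up to 0.0668 to 0.0975 CPM per gene. The receptor genes Ifnar1 (-0.41, edgeR adjusted p = 0.0177) and Ifnar2 (-0.39, edgeR adjusted p = 0.00766) were lower within the fold limit.

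Of 11 paralogs of the members 4 fell and 2 rose. Siglecg, the Siglec of B cells, fell by 1.83 and Siglecf, that of eosinophils, by 0.68, whereas Siglec1, that of macrophages, rose by 1.63 on the log2 scale. Beside Tcf4 at -0.05, the E protein gene Tcf3, which B cells depend on, was at -0.94 (edgeR adjusted p = 2e-04) and Tcf12 at -0.28. Beside Spib at -3.53, the closest ETS relatives Spi1 (PU.1) and Spic were at 0.03 and -1.06. Pacsin2 was at -0.31 and Pacsin3, the muscle form, at 1.72 (1.18 and not called with the muscle covariate), and Cox6a1, the form of most tissues, at -0.04 (0.12 by library size alone).

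In conventional dendritic cells, the nearest relatives of pDCs, 4 of 8 genes fell, among them Zbtb46 (-0.77, edgeR adjusted p = 4.62e-04), and 2 rose. The riser Clec10a, a lectin of macrophages and dendritic cells, went from 10.4 ± 2.44 to 212 ± 100.8 CPM (4.34 log2, edgeR adjusted p = 7.49e-06), and Batf3 rose by 1.60. The difference between this list and the pDC genes, none of which rose among the 9 and the 14 others, was not tested.

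In kidney 0 of the 7 tested members were called. By the same rule 3.81% of 19293 kidney genes were lower and 7.68% higher, 11.5% together, and 29.4% passed the adjusted p alone. Tcf4 was the best expressed, at 42.3 ± 3.54 CPM in vehicle and 53.7 ± 6.51 CPM in oxaliplatin mice, and rose within the fold limit (0.34 log2, SE 0.08, edgeR adjusted p = 0.00574) with overlapping groups. The other 6 were low, with means of 0.374 to 1.57 CPM in either group. Tlr9 had a log2 fold change of -0.64 (95% interval -1.33 to 0.05), Cox6a2 of -0.57 (-1.14 to 0.00126), Cd4 of -0.39, Tlr7 of -0.19, Pacsin1 of -0.13 and Ccr9 of 0.17. The 2 intervals are wider than the edgeR test implies. Its unadjusted p was 0.0473 for Tlr9 and 0.0341 for Cox6a2 (edgeR adjusted p = 0.118 and 0.0931).

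Siglech had 0 to 12 counts in a vehicle kidney library and 0 to 4 in an oxaliplatin one, and Spib 4 to 12 and 2 to 12. A kidney count of 0 allows up to 0.0900 to 0.130 CPM, so pDC RNA in kidney was at the edge of what this depth shows. Kidney marker genes, at 13194 CPM or more in kidney, summed to 0.951 CPM or less in every marrow library.

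The change in marrow was tested against that in kidney in a single model of 20 libraries, by adjusted p alone, under which 30.1% of 24321 genes differed and 13.1% had the lower change in marrow. Of the 7 members tested in both tissues 3 did: Ccr9 (-2.01, SE 0.28, edgeR adjusted p = 8.9e-06), Pacsin1 (-1.47, SE 0.39, edgeR adjusted p = 0.00603) and Cd4 (-1.01, SE 0.36, edgeR adjusted p = 0.0377). The result for Cd4 was lost when 11 of the 20 libraries were left out in turn, with adjusted p up to 0.0931. Spib and Siglech entered this model through their marrow reads alone, so their differences rest on few kidney reads and are given as values only. For Spib, with 2 to 12 counts in a kidney library, it was -2.56 (SE 0.50, edgeR adjusted p = 4.22e-04). For Siglech it was -1.83 (SE 0.81, edgeR adjusted p = 0.0959), and it came to -2.80 (edgeR adjusted p = 0.00889) without kidney vehicle replicate 4. Tcf4 at -0.33, Tlr9 at -0.54, Tlr7 at 0.29 and Cox6a2 at 0.13 did not pass.

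**Figure D5:**
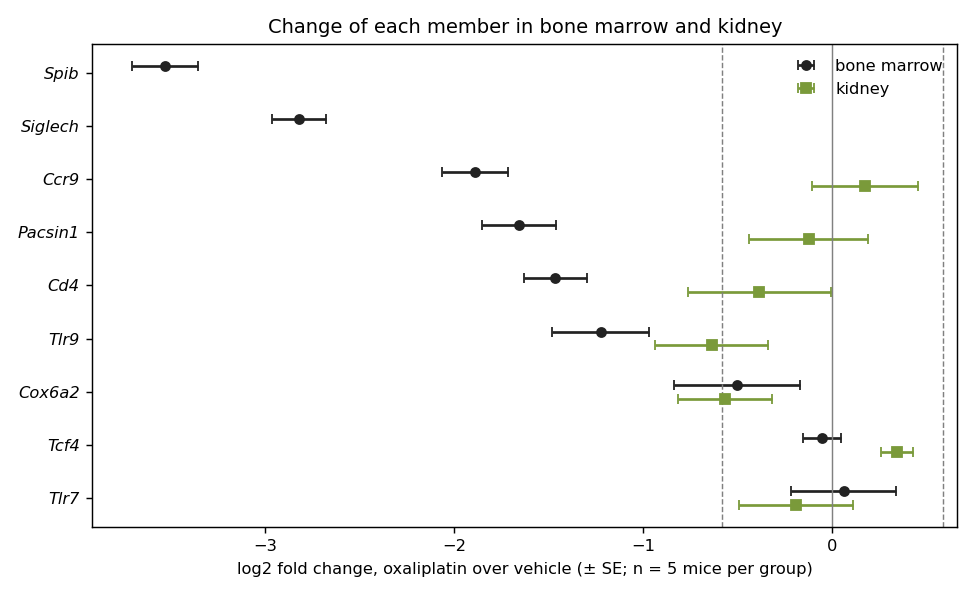
Log2 fold change (oxaliplatin over vehicle, ± SE, 5 mice per group) of each member in bone marrow (circles) and kidney (squares), with dashed lines at a 1.5-fold change. Spib and Siglech were not tested in kidney. In marrow 6 values lie left of the lower dashed line and are called, and no kidney value is called.

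Last, the members were compared from mouse to mouse. After group means were removed, the correlation of log2 CPM with Siglech over the 10 marrow mice was 0.81 for Ccr9 and 0.79 for Tlr7, ranks 165 and 261 of 15051 genes. It was 0.45 for Cd4, 0.29 for Tlr9, 0.24 for Pacsin1, -0.20 for Cox6a2, -0.29 for Spib and -0.53 for Tcf4. The genes most like Siglech by this measure were Gm4949 (0.94), Abhd5 (0.93), Zfp319 and Nlrc4 (both 0.92), none of which fell. The points share their libraries and depth, and these values are a description of 10 mice.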

How the data were processed

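Bone marrow and kidney RNA of vehicle and oxaliplatin mice was sequenced, with 5 libraries per group. The authors aligned reads with STAR to Ensembl 101 and deposited gene counts of uniquely aligned, unambiguous reads for each tissue. Strand use is not given in the sources used here. Low counts were even more often than odd, 69.2% to 75.1% of values from 1 to 10, so the limits from a count of 0 (3 counts) cover counting error only. Of 55774 lines per tissue, 1 with a missing value and 287 repeats of an identifier with identical counts were left out.

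Counts were filtered (filterByExpr, minimum count 10), scaled by TMM and tested with edgeR 4.0.16 (quasi-likelihood, robust, two-sided, Benjamini-Hochberg over all genes tested) in R 4.3.3. The 95% intervals used a t distribution with fewer degrees of freedom than the edgeR test, so they are wider than that test implies. Within-mouse contrasts of log2 CPM (prior count 2) used exact two-sided permutation over 252 divisions, adjusted over 15. Alternatives included DESeq2 1.42.0, other scaling and filters, a replicate block, covariates and leaving out each library. In simulated marrow counts (22067 genes) 60.6% of 2-fold and 94.5% of 4-fold changes were recovered, and 5.81% of the calls were false. Its means and spread came from the vehicle libraries alone, with 99 genes changed 2-fold and 91 changed 4-fold. In the data more genes changed, and oxaliplatin mice spread more for genes such as Tlr7 and Cox6a2, so recovery there may be lower. Libraries of a group differed beyond sampling noise. The sources do not tie marrow and kidney libraries to a mouse, so p-values measure the spread between libraries.

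The 9 genes and all lists were chosen with earlier results of these data known. The text names all 9 members, and from each list up to 4 called genes with the largest change and genes with a stated role. Exon lengths and positions came from GENCODE vM21, and promoters from RefSeq (GRCm38.p6).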

Additional observations from a re-analysis of the deposited data

Results flagged for a closer look

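In 5 genes around the pDC set 1 mouse of a group of 5 stood apart from the other 4 by Dixon's criterion, which chance meets in about 1 in 20 groups, and 60 marrow genes were checked in both groups. Irf8 was 130 CPM in oxaliplatin replicate 4, against 112 to 116 CPM in the other oxaliplatin mice, and Flt3l was 8.19 CPM in oxaliplatin replicate 5, against 6.31 to 6.61. Cd300c was 1.19 CPM in oxaliplatin replicate 5, against 0.280 to 0.512. Klra17 was 8.25 CPM in vehicle replicate 5, against 4.08 to 5.24, and Cd3g was 3.87 CPM in the same mouse, against 2.27 to 2.58.

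The change in marrow differed from that in kidney, by the interaction test of edgeR, for Ccr9 (-2.01 log2 units, marrow minus kidney), Pacsin1 (-1.47) and Cd4 (-1.01), the last not in every fit with a library left out. Spib also passed (-2.56), but it had only 2 to 12 counts in a kidney library and was not tested in kidney alone, so the value supports no statement about kidney.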

How the results depend on the processing

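Of the 9 members, 5 to 6 were called lower in marrow across the other settings and 6 to 7 with 1 library left out, and 0 higher in each. Under the replicate block 0 of the 15 within-mouse contrasts passed, against 14, because 5 same-numbered differences allow no p under 0.0625, and 13 to 14 passed with 1 library left out. Same-numbered vehicle and oxaliplatin marrow libraries correlated from -0.118 to 0.228. Libraries of unlike number were not compared, so these values do not settle whether the numbers pair the samples. In marrow the block turned Tlr7 to -0.0728 and Spi1 to -0.00986, and it turned the tissue difference of Cox6a2 to -0.0229. It changed no call of the 9 members.

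Log2 values near 0 changed sign. Library size alone moved the median of all marrow genes from -0.04 to 0.11 and gave Tcf4 0.0983, Cox6a1 0.116, Cbfa2t3 0.0566 and Ptprs 0.0216. Cox6a1 was 0.00684 by DESeq2 and 0.00682 with median ratio factors. The Y-linked covariate gave Tcf4 0.0879, Tlr7 -0.389, Cox6a1 0.0700, Spi1 -0.236, Id2 -0.116, Tlr8 -0.0241 and Ptprs 0.145. The muscle covariate, added after the data were seen, gave Tcf4 0.0365, Spi1 -0.0361, Ptprs 0.0307 and Cd3d 0.397. None of these was called, and the cause was not tested.

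With 1 library left out, the ranges in marrow were -0.137 to 0.0370 for Tcf4, -0.0945 to 0.258 for Tlr7, -0.0400 to 0.136 for Spi1, -0.115 to 0.0576 for Cox6a1 and -0.309 to 0.00680 for Ptprs. In kidney they were -0.330 to 0.0494 for Tlr7 and -0.386 to 0.0300 for Pacsin1, and the tissue difference of Cox6a2 ranged from -0.296 to 0.364. At a fold change beyond 2, 1618 marrow genes were lower and 1613 higher (2632 and 2589 at 1.5), and 286 and 655 in kidney (735 and 1481). By library size alone 470 kidney genes were lower and 2245 higher, and with the muscle covariate 1675 and 1711 marrow genes.

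Muscle genes called higher ranged from 0 to 9 over the settings and fell to 2 without vehicle replicate 1 or oxaliplatin replicate 3, against 8. With the muscle covariate 0 T cell genes were lower, against 1 (Cd2), and 8 B cell genes, against 10. Muscle level ran higher after oxaliplatin, so calls lost with this covariate are not free of the treatment difference. The 14 other pDC genes called lower numbered 7 with that covariate and 12 with the Y-linked one, against 9. T cell genes called higher reached 2 by DESeq2 and by either other scaling, against 0. For Siglech and Spib in kidney and for the interferon genes, depth limited what could be tested.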
